A study of Mus musculus with 6 samples.

Results

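Genes of glycolysis, the pentose phosphate pathway and the response to low oxygen were described in mouse lung endothelial cells (ECs) during regrowth of the lung. The set held 45 genes of the 24063 gene symbols in the deposited tables, listed by name and role: 4 transporters of glucose and lactate, 17 glycolytic enzymes, 4 enzymes that make or remove fructose 2,6-bisphosphate, 5 genes that control pyruvate entry into mitochondria, 6 subunits and sensors of the hypoxia-inducible factor (HIF) system, 5 HIF target genes and 4 pentose phosphate enzymes. All 45 passed the filter on low counts that left 16598 genes for testing. The cells came from wild-type C57BL6 male mice, aged 8 weeks in the sample labels and 12–15 weeks at surgery in the study's methods. In the PNX group the left lung had been removed by unilateral pneumonectomy (PNX) 7 days earlier, after which the remaining lung grows, and the sham group had surgery without removal. ECs were taken from whole lung with beads against CD31, a surface protein of ECs that platelets and some leukocytes also carry, and each of the 3 libraries per group was RNA pooled from 2 mice.

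ECs make much of their ATP by glycolysis even when oxygen is present, and angiogenic growth is known to raise this flux. Glucose enters through GLUT transporters, hexokinase traps it, phosphofructokinase commits it to glycolysis under the control of fructose 2,6-bisphosphate, and the steps from Gapdh to Pkm return ATP and yield pyruvate, which lactate dehydrogenase turns into lactate for export. The pentose phosphate pathway branches off at glucose 6-phosphate and yields NADPH and ribose for nucleotides. When oxygen falls, the prolyl hydroxylases of the Egln family stop marking HIF-1α (Hif1a) and HIF-2α (Epas1) for destruction by the Vhl ubiquitin ligase, and HIF then binds target genes that include most glycolytic enzymes. HIF proteins are regulated mostly through their stability, so transcript levels do not measure HIF activity.

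The libraries held 29526989 to 81282871 counts, with the lowest total in replicate 3 of each group. Replicates 1 and 2 of a group differed little beyond counting error (chi-square of 1.57 to 1.75 per degree of freedom, against 67.9 to 86.4 for pairs with replicate 3) and were therefore counted as 1 sample, which left 2 samples per group. In both groups the labels mark the pair of replicates 1 and 2, but not replicate 3, as records re-used from an earlier deposit, and the difference between the deposits was shared by the groups (Pearson's r = 0.725 and Spearman's rho = 0.739 over 14290 genes, which do not count as independent replicates). The test named without a block is edgeR's quasi-likelihood test on these 4 samples. The test with a replicate block compares PNX with sham within each deposit and has 1 residual degree of freedom. Below, "rose" and "fell" refer to an adjusted p under 0.05 in the test with the replicate block, Benjamini-Hochberg adjusted over the 16598 genes. CPM values are counts scaled to a common library size after TMM scaling.

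The panel of 12 EC markers had a summed level of 10667 to 13266 CPM in the sham libraries and 9485 to 10663 CPM in the PNX libraries, with 0 markers that rose and 2 that fell. Cell division genes and the panels of several other cell types moved with PNX too. All 16 cell division genes rose (summed level of 111 to 189 CPM in sham, 884 to 1286 CPM in PNX), as did 9 of 10 macrophage genes (2355 to 4260 CPM, 3189 to 4292 CPM) and 6 of 10 fibroblast genes (1762 to 2057 CPM, 4569 to 5745 CPM, with 1 that fell). Of 6 mesothelial genes, 5 rose (160 to 379 CPM, 325 to 863 CPM). Of 12 epithelial genes, 10 fell (10107 to 10285 CPM, 3152 to 6598 CPM), as did 8 of 11 lymphocyte genes (111 to 153 CPM, 60.7 to 89.1 CPM). Few genes rose and none fell in the smooth muscle (0 of 7 rose), neutrophil (1 of 9), erythroid (1 of 8) and platelet (2 of 8) panels. The summed macrophage level also differed between deposits in sham, at 2367 and 2355 CPM in replicates 1 and 2 and 4260 CPM in replicate 3. In bulk RNA, fewer cells of a type and less RNA per cell cannot be told apart, and the part of these shifts in the results below was not tested.

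In the RNA of the CD31-selected cells at 7 days after PNX, 9 of the 17 glycolytic enzymes rose and 1 fell, 1 of the 5 HIF target genes rose and 3 fell, and none of the 4 pentose phosphate enzymes passed. The planned main test, edgeR on the same 4 samples without the block, made none of these calls. With the block 13 members rose (28.9% of 45, against 11.5% of all genes tested) and 7 fell (15.6%, against 10.1%), and 25 did not pass. The 13 that rose were Slc16a1, Hk2, Tpi1, Gapdh, Pgk1, Pgam1, Eno1, Eno2, Pkm, Ldha, Hif1a, Egln3 and Ndrg1. The 7 that fell were Ldhb, Pfkfb2, Pfkfb3, Epas1, Bnip3, Bnip3l and Ddit4. Of these 20, Tpi1, Gapdh, Pkm, Pfkfb2, Hif1a, Bnip3 and Ndrg1 have exons that overlap another annotated gene (GENCODE vM21), so part of their reads may belong to it. For Tpi1, Gapdh, Bnip3 and Ndrg1 the overlap lies only on the opposite strand, and whether the counting used the strand is not known. In both directions together the share was 44.4%, against 21.6% of all genes tested. Members were well measured genes, and among the 4786 genes with at least the mean count of the median member 23.2% were called (10.3% higher, 13% lower), against 11 of the 23 members there (47.8%). By the rule of the study, an adjusted p under 0.01 with an absolute log2 fold change above 1, only Eno2 and Egln3 among the members were called (4.44%, against 5.12% of all genes tested, of which 3.89% were higher and 1.23% lower).

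Without the block edgeR called 0 of the 45 members and 0 of all genes tested (0%), with a lowest adjusted p of 0.072 over all genes. At an unadjusted p under 0.05 this fit held 7 members, Pgam1, Eno2, Ldha, Hif1a, Epas1, Egln3 and Ndrg1, and 12.5% of all genes. DESeq2 on the same 4 samples called 2 of the 45 members without the block, a share no larger than the 886 called of all 16598 genes. With the block it called 18 of the 45 members, against 2495 of the 16598 genes (15%). When each of the 6 libraries entered as its own replicate, edgeR called 8 members without a block (17.8%, against 13.2% of all genes): Tpi1, Pgam1, Eno2, Ldha, Hif1a, Egln3 and Ndrg1 were higher and Epas1 was lower (8.09% and 5.12% of all genes). This fit counts replicates 1 and 2 as independent, although they differed little beyond counting error. Its adjusted p is given below only for members that it called. It did not call Slc16a1, Hk2, Gapdh, Pgk1, Eno1 or Pkm (edgeR adjusted p of 0.584, 0.338, 0.132, 0.0672, 0.114 and 0.245). Nor did it call Ldhb, Pfkfb2, Pfkfb3, Bnip3, Bnip3l or Ddit4 (0.161, 0.0901, 0.127, 0.0821, 0.229 and 0.176). With 2 samples a group an exact permutation test cannot give a p below 0.333, and with 3 libraries a group it cannot go below 0.1.

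Libraries of the groups did not overlap for 20 of the 45 members (44.4%, against 36.5% of all genes tested). All 3 PNX libraries lay above all 3 sham libraries for 14 of the 45 and below for 6. The shares over all genes tested were 18.6% above and 18% below. The log2 ratio of PNX over sham had the same sign in both deposits for 40 of 45 members (88.9%, against 75.3% of all genes tested). The fitted log2 fold changes of the members had a median of 0.17 with and without the block, against −0.01 over all genes. In sham, 33 of 45 members were higher in the later deposit (73.3%, against 49.1% of all genes tested), with a median log2 ratio of 0.36. The size of that ratio exceeded the size of the PNX difference for 26 members (57.8%), a share close to that of all genes tested (55.7%).

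**Figure D1:**
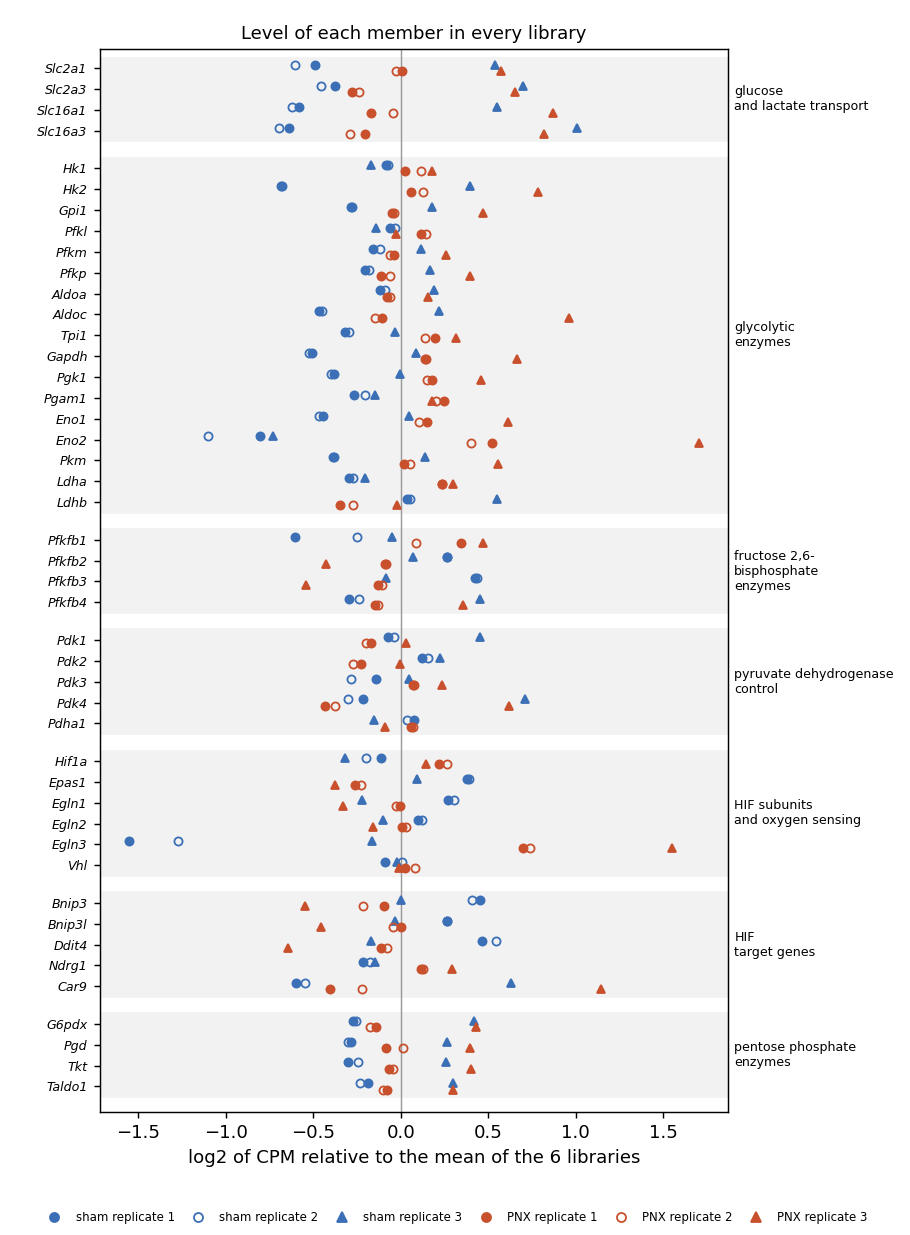
Level of the 45 members in each of the 6 libraries, as log2 of CPM relative to the mean over the libraries of that gene (x axis), grouped by role; blue marks sham, red marks PNX, circles the earlier and triangles the later deposit. The triangles of Slc2a1, Slc2a3, Slc16a1 and Slc16a3 stand to the right of the circles in both groups, whereas for Ldha, Hif1a and Ndrg1 the 3 PNX libraries lie together above the 3 sham libraries.

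**Figure D2:**
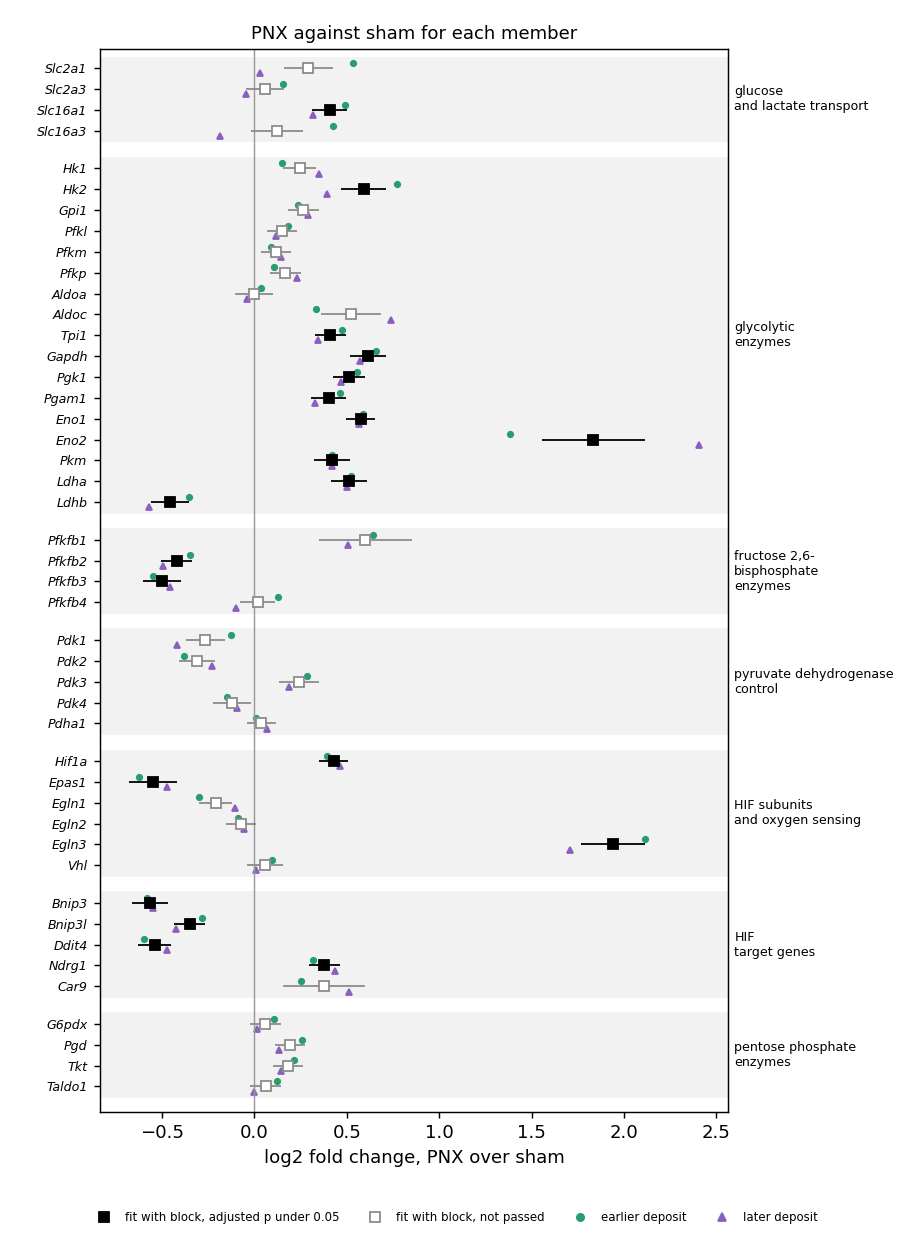
Log2 fold change of PNX over sham for the 45 members with the replicate block (squares, bars of 1 standard error; black where the adjusted p was under 0.05), with the log2 ratio within the earlier deposit (green circles) and the later deposit (purple triangles). The 13 black squares right of 0 lie mostly among the glycolytic enzymes, and the 7 left of 0 are Ldhb, Pfkfb2, Pfkfb3, Epas1, Bnip3, Bnip3l and Ddit4.

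Of the 4 transporters, 1 rose, and all 4 differed more between deposits than between groups. Slc16a1, the monocarboxylate transporter MCT1 that carries lactate and pyruvate, was at 13.4, 13.0 and 29.4 CPM in sham replicates 1 to 3 and 17.9, 19.5 and 36.7 CPM in PNX replicates 1 to 3. The groups overlapped, since sham replicate 3 lay above PNX replicates 1 and 2. Within deposits the level was higher in PNX, and Slc16a1 rose 1.33-fold (log2 fold change 0.41 ± 0.10 SE, edgeR adjusted p = 0.0228 with the replicate block, 0.839 without). The call was lost in DESeq2 with the block (adjusted p = 0.0707).

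Slc2a1, the widely expressed glucose transporter GLUT1, did not pass (log2 fold change 0.29 ± 0.13 SE, edgeR adjusted p = 0.159 with the replicate block). Its levels were 13.0, 12.02 and 26.5 CPM in the sham libraries and 18.3, 17.9 and 27.1 CPM in those after PNX, so the log2 ratio was 0.53 in the earlier deposit and 0.03 in the later one. Slc16a3, the lactate exporter MCT4, had the highest TPM of the transporters, 29.3 ± 21.7 in sham and 28.9 ± 14.5 in PNX (SD, n = 2). The sham libraries held 42.1, 40.5 and 131 CPM of Slc16a3 and the PNX libraries 57.0, 53.7 and 115 CPM, with replicate 3 far above the others in both groups. The ratio of PNX to sham pointed in opposite directions in the deposits for Slc16a3 (0.43 and −0.19 on the log2 scale) and for the high-affinity glucose transporter Slc2a3 (0.15 and −0.05).

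Of the 17 glycolytic enzymes, 9 rose, 1 fell and 7 did not pass, with a median log2 fold change of 0.41 in the fit with the block. For levels between genes the deposited TPM of the transcript with the highest count was used, since TPM is scaled by transcript length. Aldoa (410 ± 60.1 TPM, SD, n = 2), Gapdh (362 ± 107 TPM), Pkm (239 ± 61.0 TPM) and Ldha (178 ± 7.84 TPM) led in sham. The difference between Aldoa and Gapdh was smaller than the spread of the samples. The isoenzymes Hk2 (6.36 ± 3.22 TPM), Aldoc (6.78 ± 2.23 TPM) and Eno2 (0.94 ± 0.103 TPM) were the lowest of the 17.

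**Figure D3:**
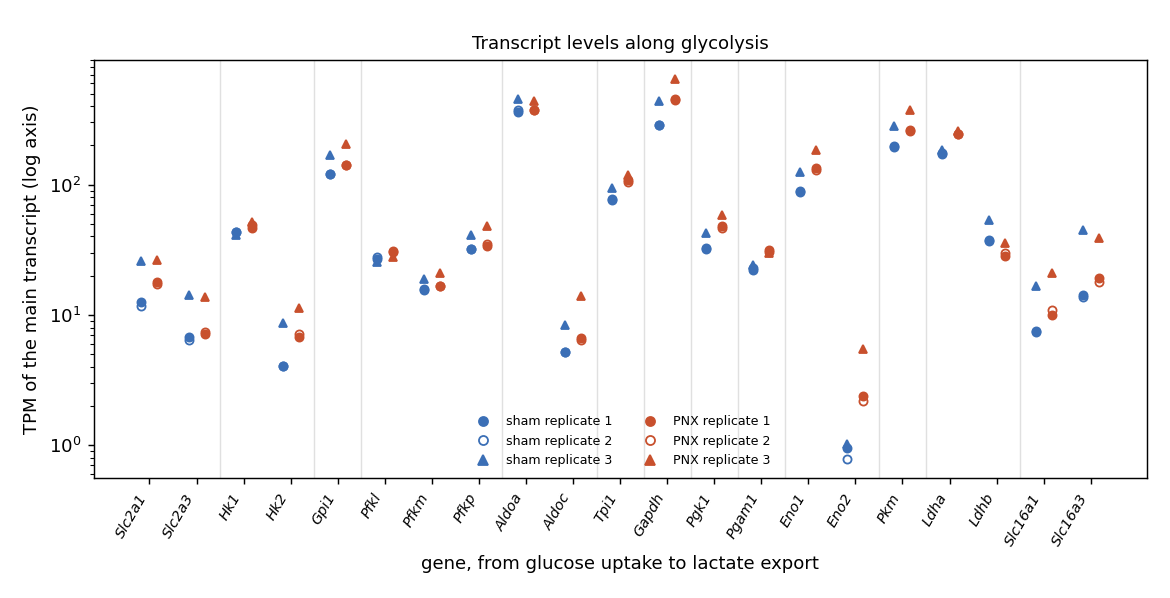
TPM of the main transcript of 21 genes in the order of the pathway from glucose uptake to lactate export (log axis), for each sham (blue) and PNX (red) library; circles are replicates 1 and 2, triangles replicate 3, and grey lines separate the steps. From Tpi1 to Ldha the red points lie above the blue points of the same deposit for each gene, whereas for Ldhb they lie below.

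In the steps from hexokinase to aldolase Hk2 was the member that rose. Hk2, the inducible hexokinase, measured 8.94, 8.99 and 18.9 CPM in the sham libraries, and 14.98, 15.7 and 24.8 CPM in those after PNX. Sham replicate 3 exceeded PNX replicates 1 and 2, so that the groups overlapped. Within deposits Hk2 rose 1.51-fold (log2 fold change 0.59 ± 0.12 SE, edgeR adjusted p = 0.0138 with the replicate block, 0.717 without). Hk1, the constitutive hexokinase with the higher level (42.1 ± 1.71 TPM in sham, SD, n = 2), lay at 134 to 143 CPM in sham and 153 to 171 CPM in PNX without overlap, but did not pass (log2 fold change 0.25 ± 0.09 SE, adjusted p = 0.092).

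Glucose 6-phosphate isomerase (Gpi1) and the phosphofructokinase genes Pfkl, Pfkm and Pfkp had log2 fold changes of 0.26, 0.15, 0.12 and 0.17, and none passed (edgeR adjusted p of 0.0621, 0.246, 0.345 and 0.194 with the replicate block). Pfkl was the only phosphofructokinase gene whose libraries did not overlap, at 37.9 to 41.0 CPM in sham and 41.1 to 46.4 CPM in PNX. Aldoa, the main aldolase, measured 686, 701 and 851 CPM in the sham libraries, and 706, 715 and 829 CPM in those after PNX, a log2 fold change of −0.00 ± 0.10 SE. The minor aldolase gene Aldoc had a larger difference (log2 fold change 0.52 ± 0.16 SE) and did not pass either (adjusted p = 0.0595).

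From triose phosphate onwards each step had a member that rose. Tpi1, which interconverts the triose phosphates, measured 49.1, 49.7 and 59.8 CPM in the sham libraries, and 69.9, 67.2 and 75.9 CPM in those after PNX. All PNX libraries lay above all sham libraries, and Tpi1 rose 1.33-fold (log2 fold change 0.41 ± 0.08 SE, edgeR adjusted p = 0.0138 with the replicate block, 0.408 without).

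Gapdh, which yields NADH and is often used as a reference gene, measured 326, 323 and 493 CPM in the sham libraries, and 513, 510 and 734 CPM in those after PNX. Its lowest PNX library lay just above its highest sham library. Gapdh rose 1.53-fold (log2 fold change 0.61 ± 0.10 SE, edgeR adjusted p = 0.00567 with the replicate block, 0.507 without), with log2 ratios of 0.66 within the earlier and 0.57 within the later deposit. Pgk1, the ATP-yielding phosphoglycerate kinase, measured 23.7, 23.5 and 30.8 CPM in the sham libraries, and 34.9, 34.3 and 42.5 CPM in those after PNX. Its groups did not overlap, and it rose 1.43-fold (log2 fold change 0.51 ± 0.09 SE, edgeR adjusted p = 0.00666 with the replicate block, 0.414 without).

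Pgam1, the phosphoglycerate mutase, differed little between deposits. It measured 16.0, 16.7 and 17.4 CPM in the sham libraries, and 22.9, 22.2 and 21.9 CPM in those after PNX, with a wide gap between the groups. Pgam1 rose 1.32-fold (log2 fold change 0.40 ± 0.10 SE, edgeR adjusted p = 0.0258 with the replicate block, 0.359 without and 0.0174 with 6 libraries). DESeq2 with the block gave an adjusted p of 0.1001 and no call.

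Both enolase members rose. Eno1, the widespread enolase, measured 62.8, 61.8 and 88.3 CPM in the sham libraries, and 94.9, 92.1 and 131 CPM in those after PNX, without overlap (1.49-fold, log2 fold change 0.58 ± 0.08 SE, edgeR adjusted p = 0.00284 with the replicate block, 0.468 without). The deposited counts of Eno1 and of its copy Eno1b were nearly the same in each library, at 5011 and 5015 in sham replicate 1, so the reads of Eno1 cannot be told apart from those of Eno1b. Eno2, the enolase best known from neurons (chr6:124760053-124769673, minus strand, GRCm38), measured 1.00, 0.817 and 1.06 CPM in the sham libraries, and 2.52, 2.31 and 5.71 CPM in those after PNX. All PNX libraries lay above sham, and PNX replicate 3 stood apart from the other two. Eno2 rose 3.57-fold (log2 fold change 1.84 ± 0.28 SE, edgeR adjusted p = 0.0044 with the replicate block, 0.215 without and 0.0317 with 6 libraries), with log2 ratios of 1.38 within the earlier and 2.41 within the later deposit.

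Pkm, the pyruvate kinase of most tissues, measured 381, 379 and 545 CPM in the sham libraries, and 502, 514 and 729 CPM in those after PNX. Sham replicate 3 exceeded PNX replicates 1 and 2, while the log2 ratio within both deposits was 0.42. Pkm rose 1.34-fold (log2 fold change 0.42 ± 0.10 SE, edgeR adjusted p = 0.0234 with the replicate block, 0.638 without).

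The lactate dehydrogenase subunits moved in opposite directions. Ldha, the subunit that favours lactate formation (chr7:46841475-46855627, plus strand, GRCm38), measured 370, 375 and 394 CPM in the sham libraries, and 535, 535 and 558 CPM in those after PNX. The libraries of each group lay close together and far from the other group. Ldha rose 1.43-fold (log2 fold change 0.51 ± 0.10 SE, edgeR adjusted p = 0.0103 with the replicate block, 0.258 without and 0.00682 with 6 libraries), with log2 ratios of 0.52 and 0.50 within the deposits. Ldhb, the subunit that favours pyruvate formation, measured 19.2, 19.4 and 27.3 CPM in the sham libraries, and 14.7, 15.5 and 18.4 CPM in those after PNX. The highest PNX library lay just below the lowest sham library. Ldhb fell to 0.729 of sham (log2 fold change −0.46 ± 0.10 SE, edgeR adjusted p = 0.0191 with the replicate block, 0.51 without), a call that was lost without PNX replicate 1 (adjusted p = 0.0539).

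Of the 4 enzymes of fructose 2,6-bisphosphate, the activator of phosphofructokinase, 2 fell and 2 did not pass. Pfkfb3, the isoenzyme that strongly favours synthesis of the activator and that is known to drive glycolysis in sprouting vessels, measured 924, 932 and 650 CPM in the sham libraries, and 629, 640 and 474 CPM in those after PNX. All PNX libraries lay below all sham libraries. Pfkfb3 fell to 0.706 of sham (log2 fold change −0.50 ± 0.10 SE, edgeR adjusted p = 0.0144 with the replicate block, 0.532 without). Pfkfb3 has 8 listed transcripts with nearly the same counts, 8918 to 9298 in sham replicate 1, so its summed CPM counts shared reads several times in both groups, and its level per transcript was 48.3 ± 11.8 TPM in sham and 33.8 ± 6.72 TPM in PNX (SD, n = 2).

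Pfkfb2, the isoenzyme best known from heart, measured 81.8, 82.1 and 71.6 CPM in the sham libraries, and 64.2, 64.4 and 50.8 CPM in those after PNX, without overlap. It fell to 0.748 of sham (log2 fold change −0.42 ± 0.08 SE, edgeR adjusted p = 0.0131 with the replicate block, 0.449 without). Pfkfb1, the liver isoenzyme, was at 0.74 to 1.09 CPM in sham and 1.20 to 1.56 CPM in PNX, and did not pass (log2 fold change 0.60 ± 0.25 SE, adjusted p = 0.136). Pfkfb4 ran from 22.9 to 38.5 CPM in sham and 25.4 to 35.9 CPM in PNX (log2 fold change 0.02 ± 0.10 SE).

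None of the 5 genes of pyruvate dehydrogenase control passed. The pyruvate dehydrogenase kinases switch off the enzyme complex that feeds pyruvate into the citric acid cycle, and Pdha1 is the subunit that they phosphorylate. Pdha1 had the highest level of the 5, at 72.3 ± 7.20 TPM in sham and 73.9 ± 5.26 TPM in PNX (SD, n = 2), with 86.3, 84.1 and 73.7 CPM in the sham libraries and 85.6, 86.2 and 77.1 CPM in those after PNX. The kinase Pdk2 lay lower in PNX without overlap (19.4 to 20.9 CPM in sham, 14.8 to 17.8 CPM in PNX) and Pdk3 higher without overlap (9.51 to 11.96 CPM, 12.2 to 13.6 CPM), with log2 fold changes of −0.31 ± 0.10 SE and 0.24 ± 0.11 SE (edgeR adjusted p = 0.0619 and 0.164 with the replicate block). Pdk1, a HIF target in many cells, had a log2 fold change of −0.27 ± 0.11 SE (adjusted p = 0.122). Pdk4 differed mainly by deposit, with 9.30 to 9.87 CPM in replicates 1 and 2 and 18.8 CPM in replicate 3 of sham.

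Of the 6 genes of the HIF system, 2 rose, 1 fell and 3 did not pass. Hif1a, the oxygen-labile subunit present in most cells, measured 68.5, 64.4 and 59.3 CPM in the sham libraries, and 86.2, 88.8 and 81.8 CPM in those after PNX. The PNX libraries all lay above the sham libraries. Hif1a rose 1.34-fold (log2 fold change 0.43 ± 0.08 SE, edgeR adjusted p = 0.0101 with the replicate block, 0.32 without and 0.018 with 6 libraries).

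Epas1, which encodes HIF-2α and is typical of ECs (chr17:86753700-86833410, plus strand, GRCm38), had the highest level of the 45 members, 1538 ± 213 TPM in sham and 1044 ± 64.0 TPM in PNX (SD, n = 2). Its CPM was 3597, 3612 and 2948 in sham and 2304, 2364 and 2125 in PNX, without overlap. Epas1 fell to 0.683 of sham (log2 fold change −0.55 ± 0.13 SE, edgeR adjusted p = 0.025 with the replicate block, 0.382 without and 0.0256 with 6 libraries). When each gene was counted by its highest transcript alone, the call with the block was lost (edgeR adjusted p = 0.0600). Epas1 has only 1 listed transcript, so its own counts were the same in that fit and only those of other genes changed. The summed level of the 12 EC markers barely separated the groups, with 10667 CPM in sham replicate 3 and 10663 CPM in PNX replicate 2. It also differed between deposits, at 13176 CPM in sham replicate 1. The markers had a median log2 fold change of −0.17, none that rose and 2 that fell, the vascular phosphatase Ptprb (−0.74 ± 0.11 SE, adjusted p = 0.00405) and the angiopoietin receptor Tek (−0.51 ± 0.11 SE, adjusted p = 0.0192). The part of this shift in the level of Epas1 was not tested.

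Egln3, the prolyl hydroxylase PHD3 that is itself a HIF target (chr12:54178981-54203860, minus strand, GRCm38), measured 1.25, 1.52 and 3.29 CPM in the sham libraries, and 5.98, 6.14 and 10.8 CPM in those after PNX. Its lowest PNX library lay well above its highest sham library. Egln3 rose 3.83-fold (log2 fold change 1.94 ± 0.17 SE, edgeR adjusted p = 0.000407 with the replicate block, 0.267 without and 0.0387 with 6 libraries), with log2 ratios of 2.12 within the earlier and 1.71 within the later deposit. It remained a minor member of its family: its TPM was 7.89 ± 3.17 in PNX (SD, n = 2), against 28.1 ± 4.15 for Egln1 and 42.3 ± 3.42 for Egln2. Egln1 and Egln2, the hydroxylases PHD2 and PHD1, had log2 fold changes of −0.21 ± 0.09 SE and −0.07 ± 0.08 SE and did not pass (adjusted p of 0.144 and 0.581). Vhl lay at 15.9 to 16.99 CPM in sham and 16.8 to 17.9 CPM in PNX (log2 fold change 0.06 ± 0.10 SE).

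The 5 HIF target genes that are no glycolytic enzymes were split, with 3 that fell, 1 that rose and 1 that did not pass. Bnip3 and Bnip3l encode receptors for the autophagy of mitochondria, and Ddit4 (REDD1) restrains mTORC1. Bnip3 measured 23.8, 23.0 and 17.4 CPM in the sham libraries, and 16.3, 14.98 and 11.9 CPM in those after PNX, with no overlap. It fell to 0.676 of sham (log2 fold change −0.57 ± 0.10 SE, edgeR adjusted p = 0.00715 with the replicate block, 0.441 without).

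Ddit4 measured 40.2, 42.4 and 25.8 CPM in the sham libraries, and 26.9, 27.6 and 18.6 CPM in those after PNX, and Bnip3l at 122, 121 and 98.9 CPM in the sham libraries and 101, 98.1 and 73.8 CPM in those after PNX. For both genes sham replicate 3 fell among PNX replicates 1 and 2 or below them, so the groups overlapped. Within deposits Ddit4 fell to 0.688 of sham (log2 fold change −0.54 ± 0.09 SE, edgeR adjusted p = 0.00666 with the replicate block, 0.578 without) and Bnip3l to 0.784 (log2 fold change −0.35 ± 0.08 SE, adjusted p = 0.0237, 0.607 without).

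Ndrg1, a gene of stress and growth arrest, measured 45.1, 46.5 and 47.4 CPM in the sham libraries, and 56.9, 57.2 and 64.2 CPM in those after PNX. The groups did not overlap, and Ndrg1 rose 1.3-fold (log2 fold change 0.38 ± 0.08 SE, edgeR adjusted p = 0.0194 with the replicate block, 0.361 without and 0.0233 with 6 libraries). Car9, the carbonic anhydrase that is a common mark of hypoxic tumours, stayed low at 0.99 to 2.32 CPM in sham and 1.13 to 3.31 CPM in PNX and did not pass (log2 fold change 0.38 ± 0.22 SE, adjusted p = 0.27).

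**Figure D4:**
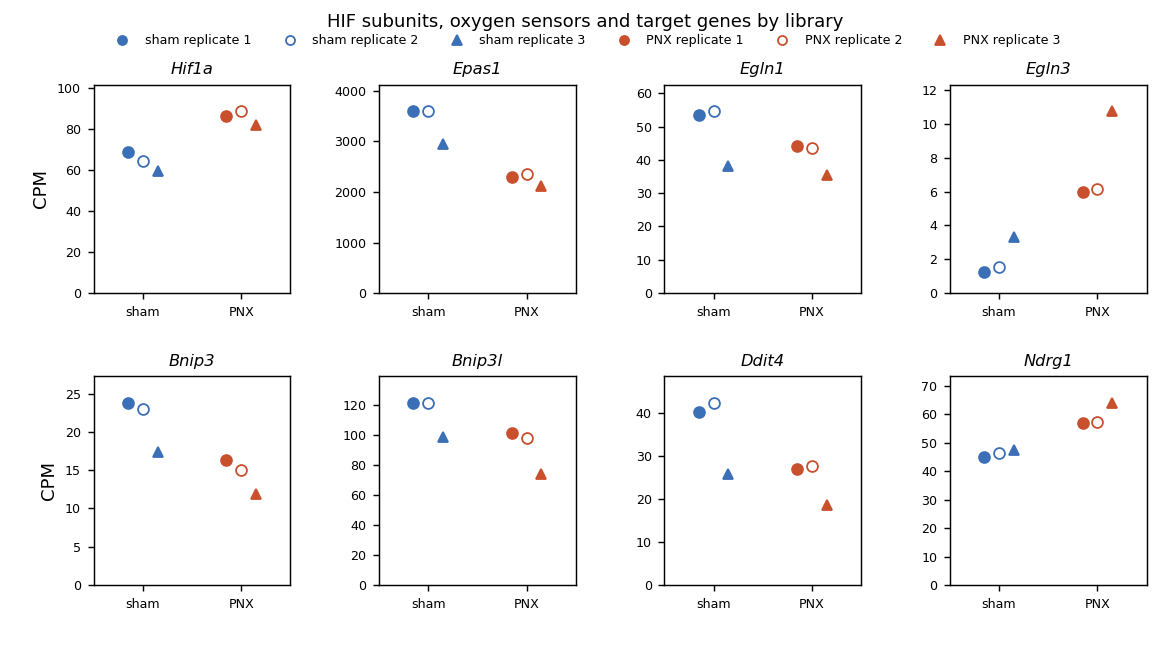
CPM of 8 genes of the HIF system and its targets in each sham (blue) and PNX (red) library, with y axes that start at 0; circles are replicates 1 and 2, triangles replicate 3. Hif1a, Egln3 and Ndrg1 lie higher in PNX in all libraries, Epas1 and Bnip3 lie lower, and for Egln1, Bnip3l and Ddit4 the sham triangle falls among or below the PNX points.

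HIF binds a short DNA core, ACGTG or GCGTG, and the windows of 250 bases before the RefSeq start sites were searched for both on both strands, with overlapping matches counted separately so that a palindromic CACGTG counts as 2. Of the 45 members, 41 had a window in the RefSeq table (Slc2a3, Epas1, Bnip3l and Ndrg1 had none). A match stood in 48 of their 62 windows (77.4%), against 38.6% of all 32851 windows and 63.8% of the windows with a GC content at or above the members' median of 60%. Those GC-rich windows had a median GC content of 66.8% and were not matched to the members' windows. Of the members with a window, 10 of the 12 that rose held a match, as did 5 of the 5 that fell and 22 of the 24 that did not pass, against 41.5% of all 27025 genes with a window. That share of all genes was not matched for number of windows or for GC content, whose median was 52.4% over all windows. The windows of 5 members are shown because they are known HIF targets that moved in opposite directions: Egln3, Ldha and Pgk1 rose, Bnip3 and Ddit4 fell. Each is printed from 5′ to 3′ on the strand of the gene (GRCm38.p6, RefSeq), with bases of annotated exons left out and matches on either strand in capitals. They lie at chr12:54203875-54204124 on the minus strand for Egln3 (1 match), chr7:46845554-46845803 on the plus strand for Ldha (5 matches; a second Ldha window, not shown, held 1), chrX:106186850-106187099 on the plus strand for Pgk1 (2 matches), chr7:138909520-138909756 on the minus strand for Bnip3 (5 matches) and chr10:59951835-59952020 on the minus strand for Ddit4 (2 matches).
Egln3: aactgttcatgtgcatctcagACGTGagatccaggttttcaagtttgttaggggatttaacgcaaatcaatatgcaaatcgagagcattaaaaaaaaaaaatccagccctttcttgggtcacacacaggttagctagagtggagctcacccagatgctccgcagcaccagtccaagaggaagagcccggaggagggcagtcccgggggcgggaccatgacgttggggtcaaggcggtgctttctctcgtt
Ldha: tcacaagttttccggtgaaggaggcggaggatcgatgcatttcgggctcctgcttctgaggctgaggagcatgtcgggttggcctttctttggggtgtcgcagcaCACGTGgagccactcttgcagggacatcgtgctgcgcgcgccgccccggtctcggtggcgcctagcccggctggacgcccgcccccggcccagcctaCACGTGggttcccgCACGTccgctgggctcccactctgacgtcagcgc
Pgk1: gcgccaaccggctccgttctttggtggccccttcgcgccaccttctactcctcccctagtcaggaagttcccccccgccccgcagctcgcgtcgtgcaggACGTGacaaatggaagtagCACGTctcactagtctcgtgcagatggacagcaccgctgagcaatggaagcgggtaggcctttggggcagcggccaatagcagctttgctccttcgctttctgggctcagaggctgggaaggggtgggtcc
Bnip3: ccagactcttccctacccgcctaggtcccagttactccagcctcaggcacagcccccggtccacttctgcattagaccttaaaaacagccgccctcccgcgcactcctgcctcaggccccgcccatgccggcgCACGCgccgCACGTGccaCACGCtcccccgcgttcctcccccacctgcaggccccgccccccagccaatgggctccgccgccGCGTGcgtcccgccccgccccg
Ddit4: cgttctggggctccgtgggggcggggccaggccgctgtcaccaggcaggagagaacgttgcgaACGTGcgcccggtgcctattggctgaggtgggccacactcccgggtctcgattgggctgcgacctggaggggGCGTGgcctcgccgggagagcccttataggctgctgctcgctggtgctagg
A match is a description of the sequence and no evidence of binding, which was not measured in these samples.

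None of the 4 pentose phosphate enzymes passed, and for each of them the gap between deposits was wider than the gap between groups. Taldo1, the transaldolase, had the highest level of the 4, at 225 ± 56.4 TPM in sham and 232 ± 45.2 TPM in PNX (SD, n = 2). Its CPM was 95.5, 92.6 and 134 in sham and 103, 101 and 134 in PNX. G6pdx, which encodes the glucose 6-phosphate dehydrogenase that opens the pathway, measured 32.7, 33.1 and 52.7 CPM in the sham libraries, and 35.7, 34.9 and 53.2 CPM in those after PNX. The log2 fold changes were 0.06 ± 0.08 SE for G6pdx, 0.19 ± 0.08 SE for the 6-phosphogluconate dehydrogenase Pgd, 0.18 ± 0.08 SE for the transketolase Tkt and 0.06 ± 0.08 SE for Taldo1, with edgeR adjusted p of 0.657, 0.138, 0.159 and 0.645 with the replicate block.

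**Figure D5:**
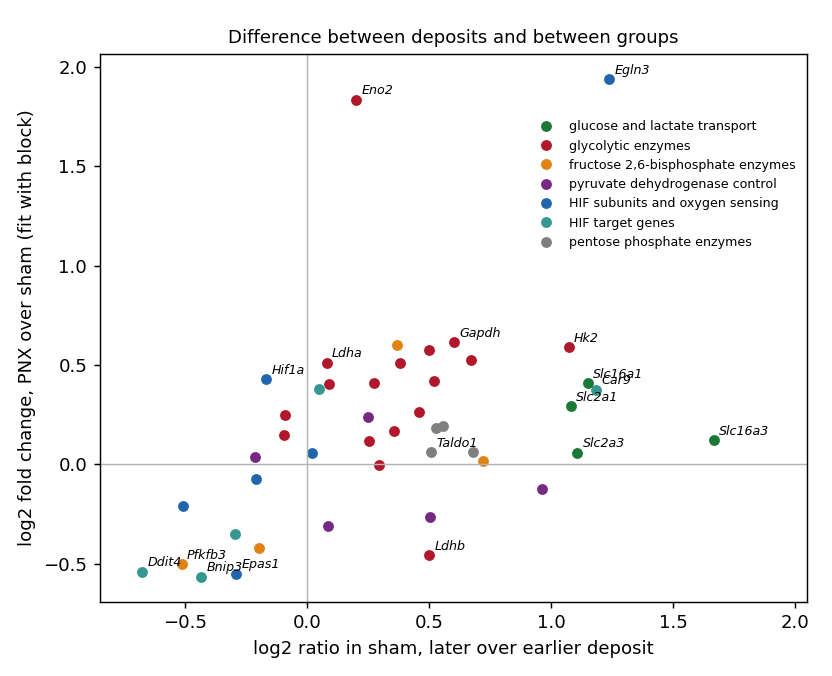
Log2 ratio of the later over the earlier deposit in sham (x axis) against the log2 fold change of PNX over sham with the replicate block (y axis) for the 45 members, coloured by role. The transporters and Hk2 lie far to the right, near or above 1 on the x axis, Ldha and Hif1a rose with little difference between deposits, and Ddit4, Bnip3, Pfkfb3 and Epas1 lie low on both axes.

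In sham, the 4 transporters had a median log2 ratio of the later over the earlier deposit of 1.13, the 4 pentose phosphate enzymes of 0.54 and the 5 HIF target genes of −0.30, although among the HIF target genes Car9 had 1.18 and Ndrg1 0.05. The ratio was 1.67 for Slc16a3, 1.15 for Slc16a1, 1.08 for Slc2a1 and 1.07 for Hk2, and the same genes were higher in the later deposit in PNX (1.06, 0.97, 0.58 and 0.69). The panels of macrophage, neutrophil, mesothelial, fibroblast, lymphocyte and cell division genes moved in the same direction between replicates 1 and 3 in both groups. The neutrophil panel went from 253 to 708 CPM in sham and from 279 to 624 CPM in PNX. The mesothelial panel went from 160 to 379 CPM in sham and from 325 to 863 CPM in PNX. The endothelial and erythroid panels moved the other way in both groups, and the smooth muscle and platelet panels differed by group. The epithelial and adipocyte panels were lower in replicate 3 than in replicate 1 of PNX. In sham they differed less between replicates 1 and 3 than between replicates 1 and 2 (epithelial 10182, 10285 and 10107 CPM in replicates 1 to 3, adipocyte 419, 425 and 416 CPM). The part of these panels in the levels of these members was not tested.

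Beyond the 45 members, 90 further genes of the same pathways were listed by role, of which 80 were tested. With the replicate block 6 of them rose and 11 fell, against 11.5% and 10.1% of all genes, and their median log2 fold change was −0.02. By role, 0 of 9 tested sugar and lactate transporters rose and 3 fell, 1 of 14 glycolytic genes rose and 1 fell, 1 of 12 genes of pyruvate entry rose, 0 of 8 pentose phosphate genes passed, 2 of 12 HIF subunits and regulators rose and 1 fell, and 2 of 25 HIF target genes rose and 6 fell. The 11 named below are those that passed and whose libraries did not overlap, a rule for naming from which nothing else was read.

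Among HIF target genes Hmox1, the heme oxygenase, measured 27.1, 26.9 and 45.4 CPM in the sham libraries, and 78.3, 77.0 and 89.6 CPM in those after PNX and rose (log2 fold change 1.26 ± 0.13 SE, edgeR adjusted p = 0.000874 with the replicate block). Angptl4, an inhibitor of lipoprotein lipase, rose less (0.58 ± 0.11 SE, adjusted p = 0.0117). Edn1, the vasoconstrictor endothelin-1 made by ECs, measured 201, 201 and 113 CPM in the sham libraries, and 82.6, 84.3 and 33.5 CPM in those after PNX. All PNX libraries lay below sham, and Edn1 fell (log2 fold change −1.497 ± 0.12 SE, edgeR adjusted p = 0.000245 with the replicate block). Hilpda, a lipid droplet protein, the VEGF receptor Flt1 and the histone demethylase Kdm3a fell too, with log2 fold changes of −0.71 ± 0.08 SE, −0.40 ± 0.11 SE and −0.29 ± 0.08 SE (adjusted p of 0.00157, 0.0361 and 0.0365).

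Pck1, which encodes the cytosolic phosphoenolpyruvate carboxykinase of gluconeogenesis and of adipocytes, measured 0.0125, 0.0845 and 0 CPM in the sham libraries, and 1.37, 1.38 and 0.643 CPM in those after PNX. It was near the lower end of detection in sham and rose (edgeR adjusted p = 0.000797 with the replicate block). With these sham levels Pck1 could pass the filter on low counts only through the PNX samples, so its adjusted p is not read as support. Of the adipocyte panel, 4 of 9 tested genes rose and 2 fell, its summed level was 416 to 425 CPM in sham and 345 to 371 CPM in PNX, and Lep was at 0 in all sham libraries. The part of adipocytes in the level of Pck1 was not tested. The transporters Slc2a12 and Slc16a7 (MCT2) fell, with log2 fold changes of −0.84 ± 0.19 SE and −0.68 ± 0.17 SE (adjusted p of 0.0219 and 0.0314). The HIF coactivator Ep300 fell (−0.38 ± 0.09 SE, adjusted p = 0.0251), and Elob, listed as Tceb2 and part of the Vhl ligase, rose (0.29 ± 0.08 SE, adjusted p = 0.0498). Without the block, edgeR called none of these 80 genes. DESeq2 with the replicate block called 5 of the 80 higher and 6 lower and none of the 9 transporters. Of the 11 genes named, it lost the calls of Slc2a12, Slc16a7, Kdm3a and Elob (DESeq2 adjusted p of 0.0981, 0.0806, 0.103 and 0.169).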

How the data were processed

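RNA of anti-CD31-selected mouse lung ECs was measured in 3 sham and 3 PNX libraries, each pooled from 2 mice. The authors sequenced stranded libraries and deposited, per RefSeq transcript, whole-number counts with FPKM and TPM scaled by transcript length and library. The submitters' processing notes name STAR and mm10; the sources used here do not give the counting rule or its use of strand. Deposited counts of 33068 transcripts were summed per symbol. Of the members, 10 have several transcripts, and in 9 of these their totals lay within 5%, so shared reads were probably counted on each. Exons of 19 members overlap another gene in GENCODE vM21, and their values are uncertain to that extent: Slc2a1, Hk1, Gpi1, Pfkm, Pfkp, Aldoa, Tpi1, Gapdh, Pkm, Pfkfb1, Pfkfb2, Pdha1, Hif1a, Egln2, Bnip3, Ndrg1, Car9, G6pdx and Tkt. Of these, Pfkm, Pkm, Pfkfb2, Hif1a and Tkt have an overlap on the same strand, and the others only on the opposite strand. The deposited FPKM values were not used, and the deposited TPM values entered no test.

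Replicates 1 and 2 of each group were summed after a chi-square of their counts over single-transcript genes (minimum of 20 counts per pair). The main test was the quasi-likelihood test of edgeR 4.0.16 (R 4.3.3, filterByExpr, then TMM scaling) without a block. The same test with the deposit as replicate block, DESeq2 1.42.0 and limma 3.58.1 (voom) were alternatives. The pairing rests on the labels, which mark the deposit, and on the correlation of the deposit difference between groups (r = 0.725). Ratios within a deposit used log2 CPM with a prior count of 2. The standard error is the log2 fold change divided by the square root of F. The labels do not say that libraries of a group came from separate isolations, so p-values cover the spread between these samples.

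The members and lists were chosen with earlier results of these data known. All members are named; every library is given for members that passed in any of the 3 edgeR fits and for the highest TPM in each role. Of the other pathway genes, those that passed with the block without overlap between groups are named. Combinations of the block with another tool, scaling, filter or left-out replicate were chosen after the data were seen.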

Additional observations from a re-analysis of the deposited data

How the results depend on the processing

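Without the replicate block, edgeR with TMM called 0 genes by either rule. By the rule of the study it called 849 genes with the block (645 higher, 204 lower), 409 with 6 libraries and no block and 1104 with both. DESeq2 called 572 without the block, 810 with it and 921 with 6 libraries, and limma-voom with the block 921. The block with another scaling gave 624 (DESeq2 size factors, 540 higher and 84 lower), 646 (upper-quartile, 548 and 98) or 629 (library size alone, 550 and 79), with at least 10 counts in every library 583, and with the highest transcript 727. Leaving out a replicate gave 0 to 2 without the block (2 without PNX replicate 3). With the block, leaving out sham replicate 1 gave 671, sham replicate 2 gave 668, PNX replicate 1 gave 485 and PNX replicate 2 gave 863. Replicate 3 cannot be left out of that fit.

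At an adjusted p under 0.05 the same settings called, over all genes, 3584, 2148 and 8395 (edgeR with the block, 6 libraries, both), 886, 2495 and 3590 (DESeq2), 4091 (limma-voom with the block), 3196, 3360 and 3259 (other scalings with the block), 3200 (at least 10 counts) and 3600 (highest transcript). Without the block the absence of a filter gave 255, and leaving out a replicate 0 to 204 (204 without sham replicate 3, 109 without PNX replicate 3). With the block, leaving out sham replicates 1 and 2 gave 3098 and 3421, and PNX replicates 1 and 2 gave 2822 and 3552.

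Of the members, edgeR called 20 with the block, 8 with 6 libraries and 33 with both, against 0 without either, and limma-voom with the block called 22. DESeq2 called 2 without the block, 18 with it and 14 with 6 libraries. Other scalings, the filter and the highest transcript gave 20 or 21 with the block, and leaving out a replicate with the block gave 19 or 20. Of the 20 members called, 4 lost the call in 1 of the 13 fits with the block, Slc16a1 and Pgam1 in DESeq2, Ldhb without PNX replicate 1 (adjusted p = 0.0539) and Epas1 with the highest transcript of each gene (adjusted p = 0.0600), and the other 16 in none. By the rule of the study 1 or 2 members were called with the block, and DESeq2 called 1 without it.

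The median log2 fold change of the members without the block was 0.17. It was 0.42 without sham replicate 3 and −0.048 without PNX replicate 3, fits in which only 1 group holds the later deposit. In the same fits 18 members, all without a call there, changed sign, with the lowest and highest log2 fold change −0.10 to 0.86 (Slc2a1), −0.50 to 0.68 (Slc2a3), −0.19 to 1.06 (Slc16a1), −0.63 to 1.053 (Slc16a3), −0.0074 to 0.53 (Gpi1), −0.039 to 0.26 (Pfkm), −0.081 to 0.38 (Pfkp), −0.12 to 0.16 (Aldoa), −0.029 to 0.97 (Aldoc), −0.27 to 0.40 (Pfkfb4), −0.70 to 0.45 (Pdk4), −0.053 to 0.11 (Pdha1), −0.16 to 0.014 (Egln2), −0.43 to 1.13 (Car9), −0.27 to 0.44 (G6pdx), −0.048 to 0.50 (Pgd), −0.070 to 0.47 (Tkt) and −0.15 to 0.34 (Taldo1). The lowest came without PNX replicate 3 and the highest without sham replicate 3, the other way round for Pdha1 and Egln2. Members near 0 without the block also turned positive elsewhere: Slc16a3 to 0.12 (block), 0.077 (6 libraries), 0.23 (both), 0.12 and 0.076 (DESeq2 with the block, with 6 libraries) and 0.12 (limma-voom), Pfkfb4 to 0.018, 0.033, 0.065, 0.016, 0.031 and 0.024 in that order, and Aldoa to 0.014, 0.019 and 0.012 (6 libraries, both, DESeq2 with 6 libraries). The cause was not tested. The number of members whose libraries did not overlap was 20 under each of the other scalings.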
